A study of Mus musculus with 16 samples.

Results

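The genes described here are 49 genes of the lysosome other than cathepsins and proton pump subunits: soluble hydrolases and their activators, proteins of the lysosomal membrane, the machinery that tags and sorts hydrolases, and 3 transcription factors of lysosomal genes. They were taken by symbol from the deposited table, by a rule that sets no threshold on a difference between groups. All 49 listed symbols were found among its 21965 genes, all 49 held at least 10 counts in at least 4 of the 16 libraries, and all 49 were among the 11319 genes tested. In the table's own annotation, 45 of the 49 carried the KEGG pathway Lysosome, which 120 of the tested genes carried. The 4 without it were Grn, Tfeb, Tfe3 and Mitf.

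RNA was sequenced from RAW264.7 cells, a mouse macrophage line that the labels describe as leukaemic mononuclear macrophages. The 4 groups of 4 libraries were vehicle (culture medium, called control), oxLDL, tirzepatide, and oxLDL together with tirzepatide (called the combination). The dose of oxLDL was 50 µg/ml and that of tirzepatide was 100 nmol/ml, in the unit of the labels. Whether nmol/l was meant could not be settled from the sources used here, so the dose of tirzepatide is uncertain. OxLDL, oxidised low-density lipoprotein, is a modified particle that macrophages take up and break down in lysosomes. Tirzepatide is a peptide agonist at the GIP receptor and the GLP-1 receptor, which respond to incretin hormones. All groups were the same line in the same serum-containing medium. The time of treatment was not given in the sources used here, nor whether numbered libraries came from separate cultures, and p-values then cover only the spread between these libraries.

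Lysosomes break down lipoproteins, glycoproteins, glycolipids and nucleic acids with acid hydrolases. Most hydrolases receive a mannose 6-phosphate tag in the Golgi and are carried to the lysosome by mannose 6-phosphate receptors, while heavily glycosylated membrane proteins line the organelle and transporters carry breakdown products out. Transcription factors of the MiT/TFE family, among them TFEB, TFE3 and MITF, move to the nucleus when lysosomes are stressed and bind E-box motifs in the promoters of lysosomal genes. Their movement is not visible in RNA levels.

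Library totals ran from 15877278 counts to 17336019, and the share of counts from the mitochondrial genome ran from 7.69% to 11.2%, the highest being control 1. The 13 macrophage markers examined each averaged over 10 TPM (a transcript level scaled for gene length and sequencing depth), and their summed TPM was 19024 to 20353 in control, 23932 to 25386 with oxLDL, 22341 to 23348 with tirzepatide and 23466 to 25911 in the combination. Most of that sum was Lyz2, lysozyme, at 15150 to 16458 TPM in control, 19390 to 20672 with oxLDL, 17969 to 19092 with tirzepatide and 19123 to 21333 in the combination. The other 12 markers summed to 3874 to 4190 TPM in control, 4489 to 4714 with oxLDL, 4227 to 4372 with tirzepatide and 4342 to 4578 in the combination. Summed TPM of a pancreatic acinar list was 371 in control 1 and 202 in control 2 against 8.98 to 75.4 in the other 14 libraries. Members called against control are therefore also given without these 2 libraries. Marker lists of fibroblasts, lymphocytes and epithelial cells had every gene under 2 TPM. Of 9 osteoclast genes, 7 were under 2 TPM, all but Mmp9 and Nfatc1. The list's sum was 90.4 to 132 TPM in control, 84.9 to 101 TPM with oxLDL, 102 to 127 TPM with tirzepatide and 75.8 to 92.4 TPM in the combination.

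To show the promoter letters beside the values, the 250 bases before the annotated start of each gene were searched in the RefSeq promoter table, which is on the earlier mouse build GRCm38.p6. The motifs were the E-box CACGTG and TCACGTGA, the core of the CLEAR element bound by TFEB. Each reads the same on both strands, and every TCACGTGA contains a CACGTG. Entries existed for 44 of the 49 members, the exceptions being M6pr, Galns, Asah1, Sort1 and Hgsnat. CACGTG was present in 13 of the 44 (29.5%), against 10.1% of 8888 tested genes and 6.86% of all 27025 genes of the table. TCACGTGA was present in 6 of the 44 (13.6%), against 1.91% of tested genes and 0.907% of all genes. It was found in Gla, Igf2r, Cln3, Gnptg, Mcoln1 and Sumf1. A match is a string of letters and not a measured site. The members' shares come from the gene list and the promoter letters alone, and no RNA value of these libraries enters them.

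Gla and Igf2r are shown in full because they were the members with this motif among those called with oxLDL, and each held it at 2 places. The sequences run 5′ to 3′ on the strand of the gene, capitals mark the motif, and the last base is next to the start. Both genes lie on the minus strand, Gla with chrX:134601006-134601255 and Igf2r with chr17:12769707-12769956.
Gla: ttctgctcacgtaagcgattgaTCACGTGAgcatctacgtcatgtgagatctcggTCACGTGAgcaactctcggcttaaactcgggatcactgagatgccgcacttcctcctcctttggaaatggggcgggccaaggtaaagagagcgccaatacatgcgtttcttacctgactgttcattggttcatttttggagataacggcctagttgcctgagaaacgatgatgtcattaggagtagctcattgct
Igf2r: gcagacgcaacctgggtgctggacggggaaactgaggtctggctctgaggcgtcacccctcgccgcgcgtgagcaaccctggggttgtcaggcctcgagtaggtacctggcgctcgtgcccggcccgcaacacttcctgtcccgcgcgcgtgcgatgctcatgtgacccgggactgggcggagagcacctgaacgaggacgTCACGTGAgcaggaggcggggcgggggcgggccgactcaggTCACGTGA

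The other 4 members with the motif are shown as short stretches around it, to set beside Gla and Igf2r genes that hold the same letters and were not called in any comparison. They were chosen after the search. The stretches lie at chr7:126583341-126583368 on the minus strand (Cln3), chr17:25240121-25240148 on the minus strand (Gnptg), chr8:3500463-3500490 on the plus strand (Mcoln1) and chr6:108185584-108185605 on the minus strand (Sumf1).
Cln3: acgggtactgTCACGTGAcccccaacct
Gnptg: cggctgtcacTCACGTGAccgtgagacc
Mcoln1: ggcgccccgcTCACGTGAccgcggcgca
Sumf1: gcaccacaggTCACGTGAtctc

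The members were mostly well expressed. Their median level over all libraries was 45.3 TPM, against 23.5 TPM over the tested genes. The range was wide. Lamp1, a major protein of the lysosomal membrane, averaged 1190 TPM, and Sort1, the sorting receptor sortilin, averaged 1.16 TPM. There were 6 members above 500 TPM (Lamp1, Grn, Psap, Lgmn, Laptm4a and Laptm5) and 10 below 20 TPM. The members together made up 0.711% to 0.807% of all TPM in control, 0.817% to 0.862% with oxLDL, 0.765% to 0.811% with tirzepatide and 0.774% to 0.833% in the combination. The oxLDL libraries lay above every control library in this share.

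OxLDL was first compared with control. With oxLDL, 9 of the 49 members rose and none fell: the glycosidases Gla, Gusb and Man2b1, the acetyltransferase Hgsnat, the phosphatase Acp2, progranulin (Grn), the membrane proteins Lamp2 and Cd63, and the sorting receptor Igf2r. The rises were small, between 0.17 and 0.54 on the log2 scale. A gene was called at an adjusted p under 0.05 in edgeR's quasi-likelihood test of the counts, with Benjamini-Hochberg adjustment over all 11319 genes. Over all tested genes, 4.54% were called, 2.49% higher and 2.05% lower. The median log2 change was 0.08 over the members and -0.00 over all tested genes, and 39 of the 49 were above 0 (79.6%) against 49.5% of tested genes.

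**Figure D1:**
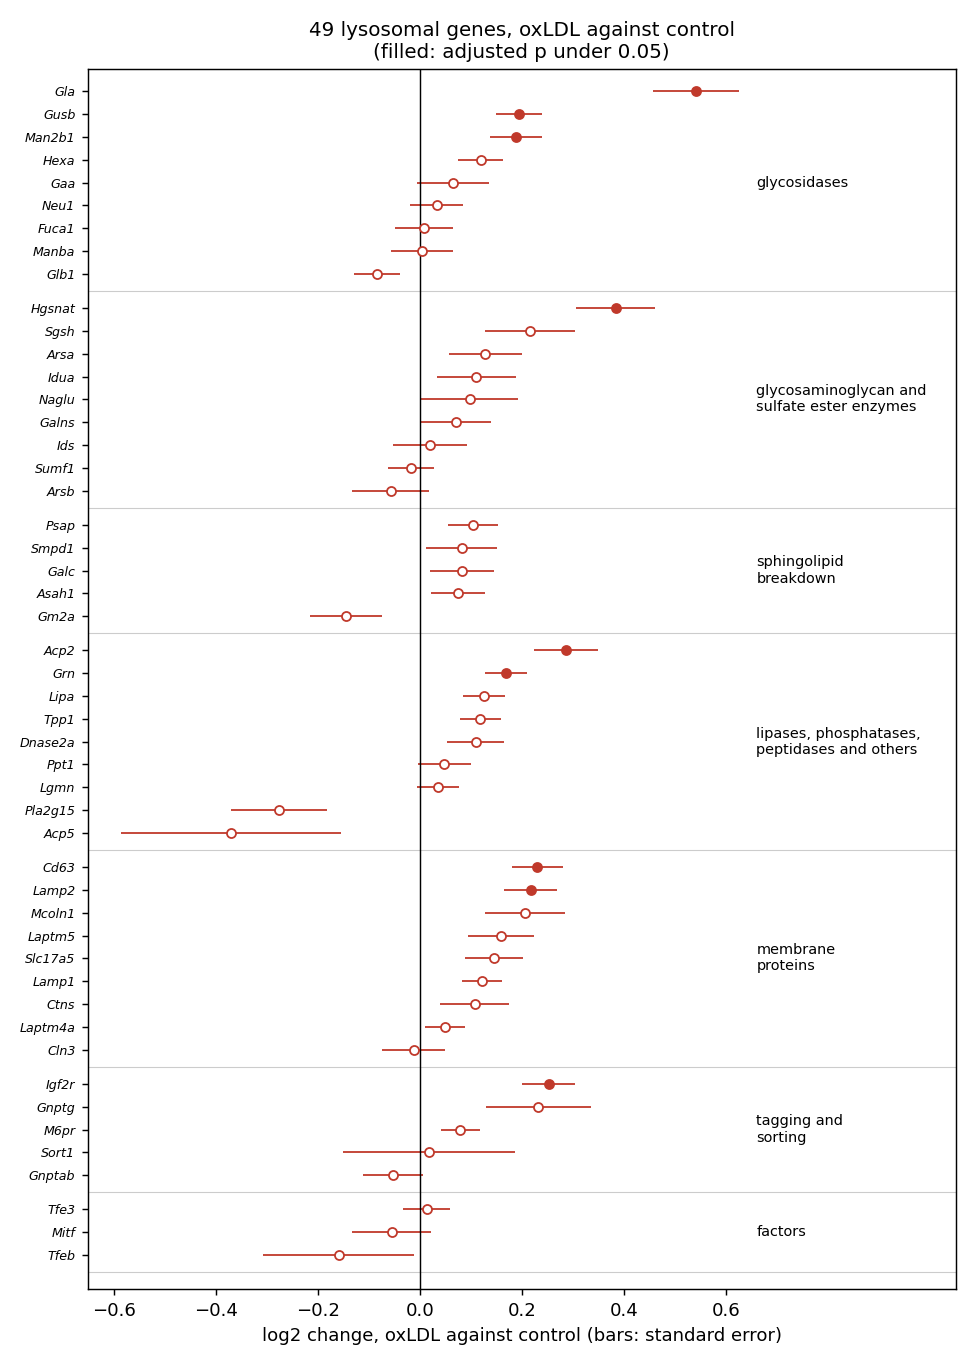
Log2 change of each of the 49 members with oxLDL against control (x axis, bars give the standard error), grouped by role on the y axis, with filled points for genes called at an adjusted p under 0.05. The 9 filled points all lie to the right of 0, and Gla at 0.54 and Hgsnat at 0.38 lie farthest out.

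Per-library values are given below as CPM (counts scaled to a common library size, normalised between libraries by the TMM method), in the order of libraries 1 to 4. Among the 9 glycosidases, which cut sugars from glycoproteins and glycolipids, 3 rose and 6 were not called. Gla, alpha-galactosidase A, which removes the end galactose from the glycolipid globotriaosylceramide, read 28.6, 29.1, 26.6 and 30.3 CPM in control and 43.4, 42.8, 38.4 and 42.2 CPM with oxLDL. Every oxLDL library was above every control library, a 1.46-fold difference (log2 change 0.54, SE 0.08, edgeR adjusted p = 0.000213). Gusb, beta-glucuronidase, read 141, 151, 152 and 155 CPM in control and 167, 176, 162 and 181 CPM with oxLDL. Its log2 change was 0.19 (SE 0.04, edgeR adjusted p = 0.0099), again without overlap, and the call was lost without oxLDL 4 (edgeR adjusted p = 0.0591). Man2b1, lysosomal alpha-mannosidase, read 86.1, 98.6, 102 and 101 CPM in control and 107, 110, 114 and 111 CPM with oxLDL, with a log2 change of 0.19 (SE 0.05, edgeR adjusted p = 0.0302). Control 1 was its lowest library. The Man2b1 call was lost when either control 1, control 2 or any single oxLDL library was left out, at adjusted p values of 0.0512 to 0.113 by edgeR. Hexa, the alpha subunit of beta-hexosaminidase, read 235, 270, 271 and 262 CPM in control and 284, 280, 281 and 282 CPM with oxLDL, and was not called (log2 change 0.12, edgeR adjusted p = 0.132) although the groups did not overlap.

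Of the 9 genes that break down glycosaminoglycans and sulfate esters, 1 rose. Hgsnat, the membrane enzyme that acetylates heparan sulfate inside the lysosome, read 58.9, 69, 72 and 70.5 CPM in control and 87.4, 86.5, 91 and 88.2 CPM with oxLDL. The oxLDL libraries lay close together and above all controls (log2 change 0.38, SE 0.08, edgeR adjusted p = 0.00359). Naglu, which acts right after Hgsnat in heparan sulfate breakdown, read 25.5, 30.5, 34.5 and 32.9 CPM in control and 31.4, 32.5, 34.9 and 33.3 CPM with oxLDL, which overlapped (log2 change 0.10, edgeR adjusted p = 0.645). Sumf1, which activates all sulfatases, read 81.1, 80.9, 80.1 and 78.5 CPM in control and 82.3, 78.3, 79.7 and 76.5 CPM with oxLDL. Its log2 change of -0.02 had an SE of 0.05, so the Sumf1 promoter letters shown above went with no detectable change. The sulfatases Arsa, Arsb, Galns, Sgsh and Ids and the iduronidase Idua ranged from -0.06 (Arsb) to 0.22 (Sgsh) on the log2 scale, and none was called.

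None of the 5 sphingolipid genes was called. Psap, the precursor of the saposins that present glycolipids to their enzymes, read 1004, 1091, 1164 and 1117 CPM in control and 1133, 1168, 1200 and 1204 CPM with oxLDL, which overlapped (log2 change 0.10, edgeR adjusted p = 0.266). Asah1, acid ceramidase, read 117, 105, 100 and 106 CPM in control and 117, 109, 111 and 114 CPM with oxLDL. Gm2a, the activator that lifts GM2 ganglioside out of the membrane for hexosaminidase, went the other way, from 66.9, 66.9, 70.2 and 65.2 CPM to 67.5, 61.6, 57.5 and 57 CPM (log2 change -0.15, SE 0.07, edgeR adjusted p = 0.277). Its oxLDL library 1 lay within the control range.

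Among the 9 lipases, phosphatases, peptidases and other soluble proteins, Acp2 and Grn rose. Acp2, lysosomal acid phosphatase, read 55, 45.2, 50.5 and 54.5 CPM in control and 63.6, 61.9, 62.2 and 62.6 CPM with oxLDL (log2 change 0.29, SE 0.06, edgeR adjusted p = 0.00646). The groups did not overlap in CPM, but they did in the authors' TPM, whose log2 ratio was 0.14. The ratio of count to TPM for Acp2 differed 2.28-fold between its highest and lowest library, more than in 99.1% of the genes compared. The size of the Acp2 change thus differed between counts and TPM, and the reason was not tested. By limma on log2 TPM Acp2 was not called (limma adjusted p = 0.723). Exons of Acp2 also overlap Ddb2 on the opposite strand over 13.3% of their bases in the GENCODE M21 annotation, and the strand setting of the counting is not given in the sources used here. Grn, progranulin, a secreted and lysosomal glycoprotein cut into granulins, read 957, 986, 1069 and 997 CPM in control and 1106, 1121, 1128 and 1151 CPM with oxLDL (log2 change 0.17, SE 0.04, edgeR adjusted p = 0.0149). This call was lost without control 1, control 2 or oxLDL 4, at adjusted p values of 0.0517, 0.0657 and 0.0651 by edgeR.

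The lipid-splitting members were not called with oxLDL in the fit reported. Lipa, the acid lipase that releases cholesterol and fatty acids from lipoprotein lipids, read 330, 354, 349 and 348 CPM in control and 384, 367, 381 and 376 CPM with oxLDL. The groups did not overlap, and the adjusted p by edgeR was 0.0894 (log2 change 0.13, SE 0.04), which became 0.0478 without library 1 of the combination, a group outside this comparison that shares its fit. Lipa was also called by DESeq2 (DESeq2 adjusted p = 0.0484) and with the mitochondrial share in the fit (edgeR adjusted p = 0.0419). Pla2g15, a phospholipase and transacylase of the lysosome, was lower in every oxLDL library, at 15.9, 16.1, 16.8 and 17.4 CPM against 19.2, 20.6, 22.8 and 17.5 CPM in control (log2 change -0.28, SE 0.09, edgeR adjusted p = 0.0986). It was the 1 member lying wholly below control in this comparison, where 4.78% of tested genes did so.

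Of the 9 membrane proteins, 2 rose and 8 were above 0. Lamp2, a major glycoprotein of the membrane with a role in chaperone-mediated autophagy, read 461, 422, 418 and 445 CPM in control and 523, 516, 500 and 492 CPM with oxLDL (log2 change 0.22, SE 0.05, edgeR adjusted p = 0.0121). Cd63, a tetraspanin of late endosomes and lysosomes, read 91.7, 89.8, 83.4 and 92.7 CPM in control and 108, 108, 102 and 102 CPM with oxLDL (log2 change 0.23, SE 0.05, edgeR adjusted p = 0.00601). For both genes the lowest oxLDL library was above the highest control, and the Lamp2 call was lost without control 2 or oxLDL 1 (edgeR adjusted p = 0.0629 and 0.0543). Lamp1 read 1195, 1309, 1302 and 1329 CPM in control and 1366, 1429, 1388 and 1404 CPM with oxLDL, without overlap and not called (log2 change 0.12, SE 0.04, edgeR adjusted p = 0.0802). Lamp1 was called by DESeq2 (DESeq2 adjusted p = 0.0259) and with a replicate block in the fit (edgeR adjusted p = 0.0299). Mcoln1, the calcium channel TRPML1 and one of the genes with TCACGTGA, read 35, 39.2, 43.2 and 40.6 CPM in control and 44.2, 46.5, 44 and 47.7 CPM with oxLDL. Its log2 change was 0.21 (SE 0.08, edgeR adjusted p = 0.147). Cln3, which has the motif too, had a log2 change of -0.01 (SE 0.06).

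Of the 5 tagging and sorting genes, Igf2r rose. It encodes the large, cation-independent mannose 6-phosphate receptor and read 173, 180, 198 and 198 CPM in control and 216, 213, 231 and 233 CPM with oxLDL (log2 change 0.25, SE 0.05, edgeR adjusted p = 0.00374). The small, cation-dependent receptor M6pr read 509, 494, 475 and 463 CPM in control and 510, 523, 511 and 507 CPM with oxLDL, which overlapped (log2 change 0.08, edgeR adjusted p = 0.263). Gnptg, a subunit of the phosphotransferase that starts the tag, read 13.5, 13.4, 10.8 and 11.8 CPM in control and 13.9, 15.2, 13 and 16.1 CPM with oxLDL. It was not called (log2 change 0.23, SE 0.10, edgeR adjusted p = 0.229), and its exons overlap Unkl on the opposite strand over 49.5% of their bases. Gnptab, the catalytic subunit's gene, and Sort1 were at -0.05 and 0.02.

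The 3 transcription factors were not called with oxLDL. Tfeb read 6.12, 5.12, 6.67 and 5.49 CPM in control and 5.02, 5.44, 5.09 and 5.42 CPM with oxLDL (log2 change -0.16, SE 0.15, edgeR adjusted p = 0.629). Tfe3 read 145, 136, 145 and 146 CPM in control and 144, 146, 144 and 143 CPM with oxLDL. Mitf read 42.2, 38.5, 35.3 and 38.9 CPM in control and 36.1, 33.9, 41.4 and 37.4 CPM with oxLDL. All 3 overlapped between the groups, and the sign of Tfe3 (log2 change 0.01) and Mitf (-0.06) turned when controls 1 and 2 were left out.

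**Figure D2:**
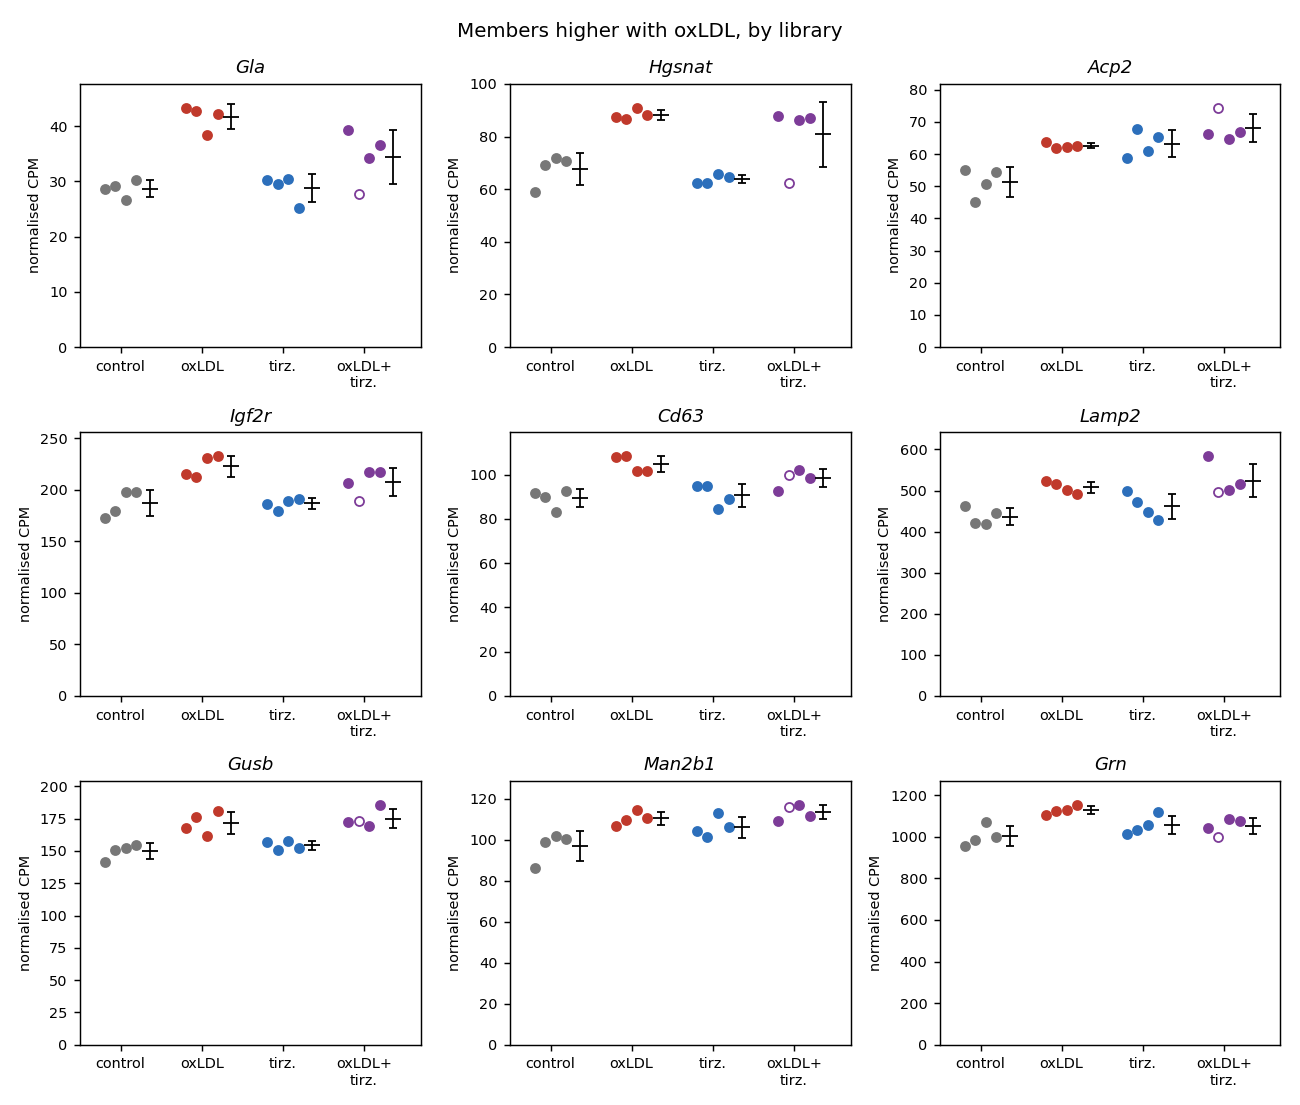
TMM-normalised CPM (y axis, from 0) of the 9 members called higher with oxLDL, by group on the x axis, with 1 point per library and the mean and SD (n = 4) in black beside each group. Open points mark library 2 of the combination, which lies near control for Gla (27.8 CPM) and Hgsnat (62.4 CPM).

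By CPM, 14 members had all oxLDL libraries above all controls, against 6.24% of tested genes. They were the 9 called genes with Lipa, Tpp1, Hexa, Lamp1 and Mcoln1. DESeq2 called Lipa, Lamp1 and Tpp1 higher (Tpp1 log2 change 0.12, DESeq2 adjusted p = 0.038), but not Hexa or Mcoln1. By limma on log2 TPM Tpp1 was called too. Without controls 1 and 2, which carried the acinar transcripts, 3 of the 9 calls remained (Gla, Cd63 and Lamp2), with edgeR adjusted p values of 0.0502 for Acp2, 0.0654 for Hgsnat and 0.124 to 0.281 for the other 4. The log2 changes there were 0.25 for Acp2 (0.29 with all libraries), 0.30 for Hgsnat (0.38), 0.15 for Gusb (0.19), 0.12 for Grn (0.17), 0.17 for Igf2r (0.25) and 0.12 for Man2b1 (0.19), and those of Igf2r and Man2b1 shrank by over 1.5 times. Of tested genes, 2.67% were called in that fit. With the acinar share of counts in the fit, 5 members and 3.28% of tested genes were called. Pla2g15 was called lower with the mitochondrial share in the fit and with control 4 left out, unlike in the fit reported, where no member fell. Leaving out 2 of 4 controls also lowers the number of samples. The part of the acinar transcripts, and that of the macrophage marker sum, in these rises was not tested.

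Tirzepatide alone was compared with control next, and only Acp2 and Hexa were called, 1 higher and 1 lower. Over all tested genes 4.08% were called, 2.34% higher and 1.74% lower, so the members' share of 2 in 49 was near the background in this fit. The median log2 change of the members was -0.03, with 18 above 0. Acp2 read 58.7, 67.9, 61.1 and 65.3 CPM with tirzepatide, above all controls (log2 change 0.30, SE 0.06, edgeR adjusted p = 0.00727). On log2 TPM it was not called (limma adjusted p = 0.49). Hexa read 226, 224, 224 and 237 CPM, of which library 4 lay above control 1 at 235 CPM (log2 change -0.19, SE 0.04, edgeR adjusted p = 0.0173). With control 2 left out neither gene was called (edgeR adjusted p = 0.0515 for Acp2 and 0.0806 for Hexa), with control 1 left out 6 members were, and without control 3, tirzepatide 1 or tirzepatide 2 the count was 1. Of tested genes, 1.04% were called without control 2, 4.41% without control 1, and 2.17%, 1.63% and 1.74% in the other 3 fits. Without controls 1 and 2, 5 members (10.2%) and 1.78% of tested genes were called. Acp2 was higher there and Acp5, Hexa, Naglu and Psap lower. With the acinar share in the fit, 4 members (8.16%) and 2.89% of tested genes were called.

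The members raised by oxLDL mostly sat at control level with tirzepatide alone. Gla read 30.2, 29.5, 30.5 and 25.1 CPM, Hgsnat 62.5, 62.5, 65.9 and 64.5 CPM, and Igf2r 187, 180, 189 and 191 CPM, each overlapping the controls. Gusb read 157, 151, 158 and 153 CPM and Cd63 94.8, 94.7, 84.3 and 88.8 CPM. Lamp2 read 500, 471, 448 and 429 CPM, Man2b1 104, 101, 113 and 106 CPM, and Grn 1015, 1034, 1056 and 1116 CPM. All of these overlapped control, and their log2 changes ran from -0.08 (Hgsnat) to 0.13 (Man2b1). For Gla and Man2b1 the authors' TPM gave log2 ratios of 0.33 and 0.29 where the counts gave 0.01 and 0.13, so values on these 2 scales differ here.

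Among members not called, the heparan sulfate enzyme Naglu read 24.2, 24.1, 22.5 and 28.7 CPM with tirzepatide (log2 change -0.31, SE 0.10, edgeR adjusted p = 0.0652) and overlapped control through library 4. By DESeq2 Naglu was called lower (DESeq2 adjusted p = 0.0352). Psap read 976, 971, 976 and 1031 CPM, again with library 4 inside the control range (log2 change -0.15, edgeR adjusted p = 0.0949). Gm2a read 53.8, 64, 57.3 and 59.7 CPM, all below control (log2 change -0.20, edgeR adjusted p = 0.113). Gm2a was thus the 1 of these 3 whose groups stood apart. Sumf1 read 79.1, 73.8, 72.6 and 69.8 CPM. Asah1 read 113, 108, 117 and 109 CPM, Lipa 344, 330, 322 and 338 CPM, Lamp1 1311, 1298, 1264 and 1385 CPM, and Pla2g15 18.4, 17.4, 17 and 18.4 CPM, all overlapping control. M6pr read 477, 504, 499 and 484 CPM and Gnptg 14.1, 12.7, 14.2 and 13.3 CPM, which overlapped control too. The groups did not overlap for 3 members lower with tirzepatide, Gm2a, Glb1 and Mitf, where 4.66% of tested genes showed the same, and for Acp2 higher, where 5.87% did.

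Of the transcription factors, Mitf read 34.5, 34.9, 28.6 and 32.5 CPM with tirzepatide, every library below every control (log2 change -0.24, SE 0.08, edgeR adjusted p = 0.0743). Tfeb read 5.18, 4.22, 3.63 and 5.11 CPM, of which library 1 lay above the lowest control (log2 change -0.37, SE 0.15, edgeR adjusted p = 0.168). Tfe3 read 144, 144, 139 and 161 CPM and overlapped control. None of the 3 passed the edgeR test. DESeq2 called Mitf lower with tirzepatide, just under the threshold (DESeq2 adjusted p = 0.049).

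In the combination against control, 6 members rose and 3 fell. Acp2, Lamp2, Hgsnat, Man2b1, Gusb and the acid lipase Lipa rose, and the galactosidase Glb1, the phospholipase Pla2g15 and the phosphatase Acp5 fell. Over all tested genes 8.94% were called in this comparison, 4.69% higher and 4.25% lower. The median log2 change of the members was 0.03, with 31 above 0. By CPM, 7 members were wholly above control and 3 wholly below, where 5.53% and 4.93% of tested genes were. Without controls 1 and 2, 10 members and 8.42% of tested genes were called. Hgsnat, Man2b1 and Lipa lost their calls there (edgeR adjusted p = 0.219, 0.0687 and 0.0582), and Asah1, Gnptg, M6pr and Ppt1 were called higher. Acp2, Gusb, Lamp2, Acp5, Glb1 and Pla2g15 kept theirs.

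Acp2 read 66.1, 74.4, 64.6 and 67 CPM in the combination (log2 change 0.41, SE 0.06, edgeR adjusted p = 0.000189), its highest group by counts. On log2 TPM it was not called (limma adjusted p = 0.432). Lamp2 read 583, 496, 502 and 516 CPM (log2 change 0.26, SE 0.05, edgeR adjusted p = 0.00213). Man2b1 read 109, 116, 117 and 112 CPM (log2 change 0.23, SE 0.05, edgeR adjusted p = 0.0066) and Gusb 172, 173, 169 and 185 CPM (log2 change 0.22, SE 0.04, edgeR adjusted p = 0.0027). These 4 genes had every combination library above every control. Man2b1 lost its call with the acinar share in the fit (edgeR adjusted p = 0.0563) and on log2 TPM (limma adjusted p = 0.125). Lipa read 424, 381, 376 and 378 CPM, without overlap (log2 change 0.17, SE 0.04, edgeR adjusted p = 0.0109). Its call was lost without library 1 of the combination, which was its highest (edgeR adjusted p = 0.0636). Hgsnat read 87.7, 62.4, 86.4 and 87.1 CPM (log2 change 0.26, SE 0.08, edgeR adjusted p = 0.0396), so 3 libraries stood at the oxLDL level and library 2 within the control range. This Hgsnat call was lost in 18 of 26 other settings, at edgeR adjusted p values of up to 0.219.

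Pla2g15 read 12.6, 16.4, 13.1 and 16.3 CPM in the combination, all below control (log2 change -0.46, SE 0.10, edgeR adjusted p = 0.00388). Glb1, beta-galactosidase, fell from 85.2, 88.6, 95.2 and 90.9 CPM to 78.5, 81.3, 84.7 and 80.8 CPM (log2 change -0.15, SE 0.05, edgeR adjusted p = 0.0443). Acp5, the tartrate-resistant phosphatase known from osteoclasts, read 2.71, 2.86, 3.2 and 3.07 CPM in the combination and 2.59, 5, 5.97 and 6.82 CPM in control (log2 change -0.78, SE 0.22, edgeR adjusted p = 0.0291). Control 1 was below all 4 combination libraries for Acp5, and the groups overlapped. Acp5 read 4.58, 3.83, 3.64 and 3.75 CPM with oxLDL and 3.75, 2.48, 3.1 and 3.43 CPM with tirzepatide. Its log2 change by DESeq2 was -0.37 with oxLDL (DESeq2 adjusted p = 0.375) and -0.68 with tirzepatide (DESeq2 adjusted p = 0.0409). In the edgeR fit reported neither was called. With tirzepatide edgeR called it lower without control 1, without controls 1 and 2, and with the mitochondrial or acinar share in the fit. In the combination against control, the calls of Glb1 and Acp5 were lost in 15 and 8 of the 26 other settings tried. The osteoclast list above also summed lower in the combination, with overlap, while with tirzepatide it lay within the control range. Its part in the Acp5 values was not tested.

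**Figure D3:**
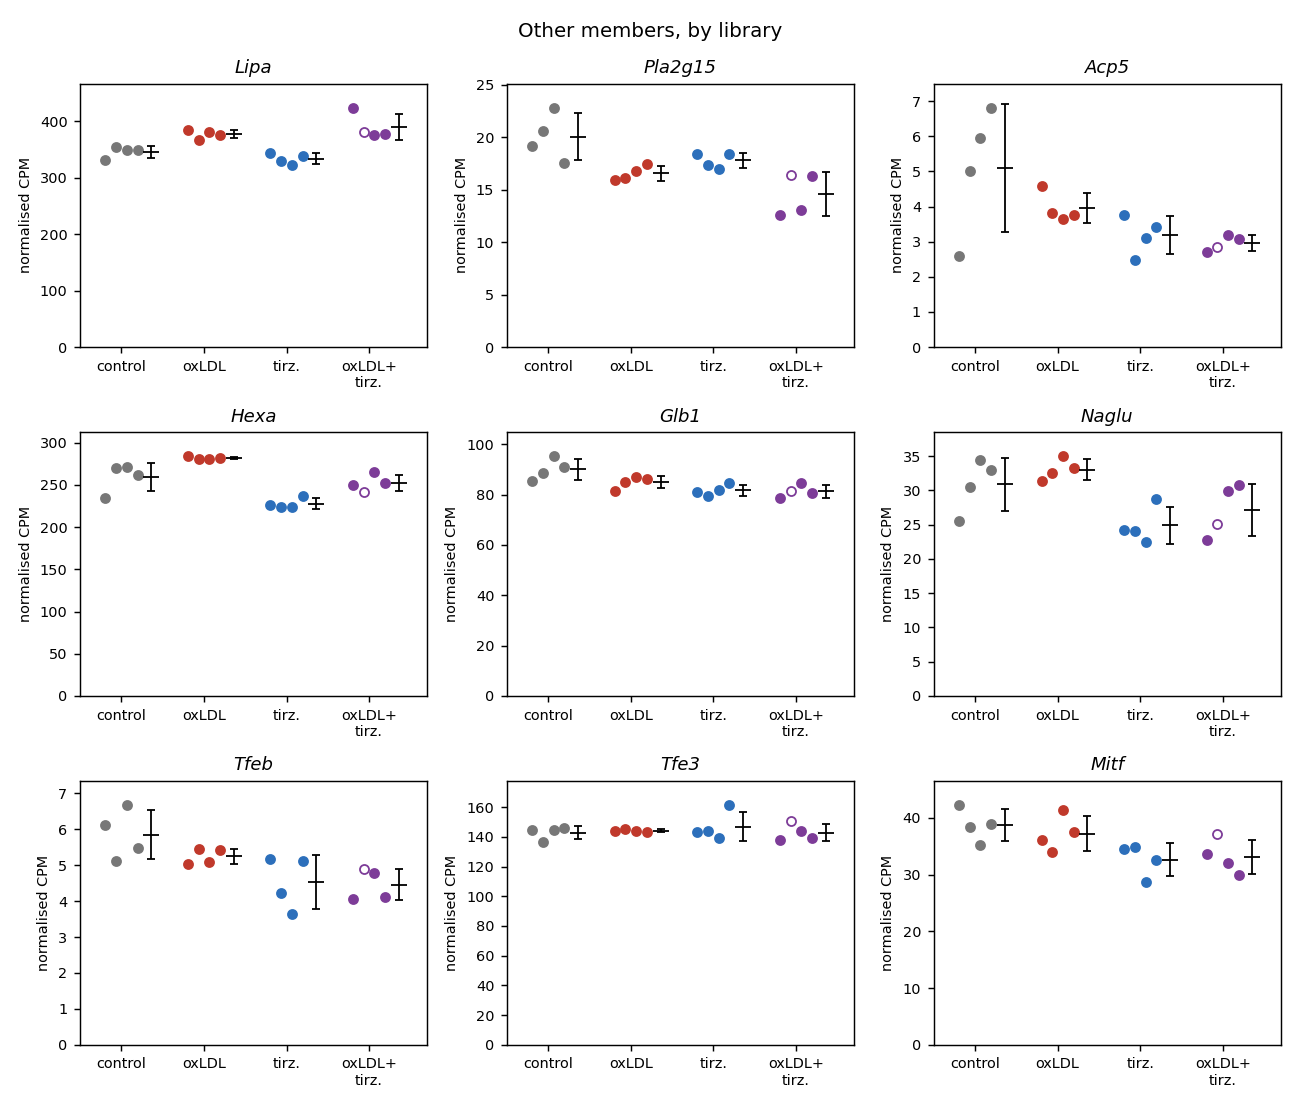
TMM-normalised CPM (y axis, from 0) of 9 further members by group on the x axis, with 1 point per library and the mean and SD (n = 4) in black beside each group, and open points for library 2 of the combination. Pla2g15 lies lowest in the combination, at 12.6 to 16.4 CPM, Lipa reaches 424 CPM in combination library 1, and Tfe3 stays between 136 and 161 CPM in all libraries.

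Gla and Igf2r, both with the motif at 2 places, were not called in the combination. Gla read 39.2, 27.8, 34.2 and 36.6 CPM (log2 change against control 0.26, SE 0.08, edgeR adjusted p = 0.0514), with library 2 inside the control range. Igf2r read 207, 189, 217 and 218 CPM (log2 change 0.15, SE 0.05, edgeR adjusted p = 0.0691), also with library 2 inside it. Cd63 read 92.8, 99.8, 102 and 98.4 CPM, all above control though narrowly (log2 change 0.14, edgeR adjusted p = 0.0868). Grn read 1043, 997, 1086 and 1076 CPM and overlapped control.

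The remaining members shown by library, apart from Tfeb, overlapped control in the combination. Naglu read 22.7, 25.1, 29.9 and 30.7 CPM, Sumf1 80.4, 81.6, 77.3 and 82 CPM, and Gm2a 60.2, 66.4, 53.8 and 51.2 CPM. Asah1 read 125, 109, 115 and 125 CPM, Psap 1062, 960, 1151 and 1121 CPM, and Lamp1 1282, 1315, 1340 and 1328 CPM. M6pr read 522, 508, 506 and 534 CPM and Gnptg 12.8, 17.5, 14.9 and 15.8 CPM. Each of these genes had at least 1 library inside the control range. Of the factors, Mitf read 33.5, 37.1, 32 and 29.9 CPM (log2 change -0.22, edgeR adjusted p = 0.0768) and Tfe3 138, 151, 144 and 139 CPM. Mitf was called lower when combination library 2 was left out. Tfeb read 4.06, 4.89, 4.78 and 4.12 CPM, all below control (log2 change -0.39, SE 0.15, edgeR adjusted p = 0.11).

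The effect of tirzepatide in the presence of oxLDL was read from the combination against oxLDL. No member was called, where 0.0353% of tested genes were (4 genes, all higher). By edgeR, 9 members (18.4%) had an unadjusted p under 0.05, where 10.1% of tested genes did, all 9 of them lower: Hexa, Gla, Naglu, Psap, Neu1, Grn, Gaa, Lamp1 and Mitf. DESeq2 called none and limma on log2 TPM called none. The median log2 change of the members was -0.07 and 34 of 49 were below 0. The lowest adjusted p by edgeR was 0.272, for Hexa (log2 change -0.16, SE 0.04), whose combination libraries read 249, 242, 265.2 and 253 CPM and lay wholly below oxLDL. Gla had a log2 change of -0.28 (SE 0.08, edgeR adjusted p = 0.303), and Naglu of -0.28 (SE 0.10, edgeR adjusted p = 0.358). By CPM, 7 members lay wholly below oxLDL (Hexa, Naglu, Neu1, Lamp1, Grn, Acp5 and Tfeb), where 2.91% of tested genes did, and Acp2 wholly above, where 2.93% did.

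The interaction asks whether the log2 change in the combination equalled that of oxLDL plus that of tirzepatide. No member was called, where 0.0707% of tested genes were (0.0265% higher and 0.0442% lower), and DESeq2 called none. By edgeR, 5 members (10.2%) had an unadjusted p under 0.05, where 10.3% of tested genes did, so the count was that of the background. Among the members Grn had the smallest, at 0.00608 (interaction -0.18, SE 0.06, edgeR adjusted p = 0.273), and Gla was at -0.29 (SE 0.12, edgeR adjusted p = 0.407).

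OxLDL in the presence of tirzepatide was read from the combination against tirzepatide alone. Hgsnat, Lipa and Gusb rose and no member fell, where 1.54% of tested genes were called, 0.76% higher and 0.777% lower. Hgsnat had a log2 change of 0.34 (SE 0.08, edgeR adjusted p = 0.0224), with combination library 2, at 62.4 CPM, below all 4 tirzepatide libraries and the other 3 above them. Lipa had a log2 change of 0.23 (SE 0.04, edgeR adjusted p = 0.00471) and Gusb of 0.18 (SE 0.04, edgeR adjusted p = 0.0376), both without overlap in CPM. The calls of Hgsnat and Gusb were lost when single libraries were left out, at edgeR adjusted p values of up to 0.114 (without combination library 4) for Hgsnat and up to 0.162 (without combination library 4) for Gusb. The median log2 change of the members was 0.07, with 37 above 0. By CPM, 6 members lay wholly above tirzepatide and Pla2g15 wholly below, where 3.34% and 3.6% of tested genes did. The count of called members was 8 without combination library 2 and 5 without control 1, where 3.89% and 2.28% of tested genes were called. It was 1 without combination library 1, 3 or 4 (0.561%, 0.815% and 0.508% of tested genes) or without tirzepatide library 2, 3 or 4 (0.894%, 0.859% and 0.824%), so the members' count moved with the number of calls over all genes.

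The oxLDL effect was thus measured in 2 comparisons that share no library, against control and, with tirzepatide present in both groups, against tirzepatide. Of the 9 members called in the first, 8 were above 0 in the second and 2 were called, Gusb and Hgsnat. Grn was the exception, at -0.01. Their median log2 change was 0.23 in the first and 0.15 in the second. Without combination library 2, all 9 were above 0 in the second, 5 were called and the median was 0.19. That fit called 3.89% of tested genes. Without combination library 1, 3 or 4, Lipa was the only member called in the second, so none of the 9 was. The matching shares among all tested genes called higher with oxLDL were not computed, so these counts have no background beside them. Across the 49 members Pearson's r between the comparisons was 0.69 and Spearman's rho 0.63, with the same sign in 37. Over all tested genes r was 0.27 and rho 0.20, with the same sign in 6390 of 11319. The members had a higher median level than the tested genes, and genes of matched level were not compared. Members are not independent replicates, and all of them share the libraries of each comparison. No correlation here was computed without controls 1 and 2. For tirzepatide, the comparisons without and with oxLDL present gave an r of 0.67 and a rho of 0.50 over the members, with the same sign in 34, against r of 0.09 and rho of 0.17 over all tested genes, with the same sign in 6360 of 11319.

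**Figure D4:**
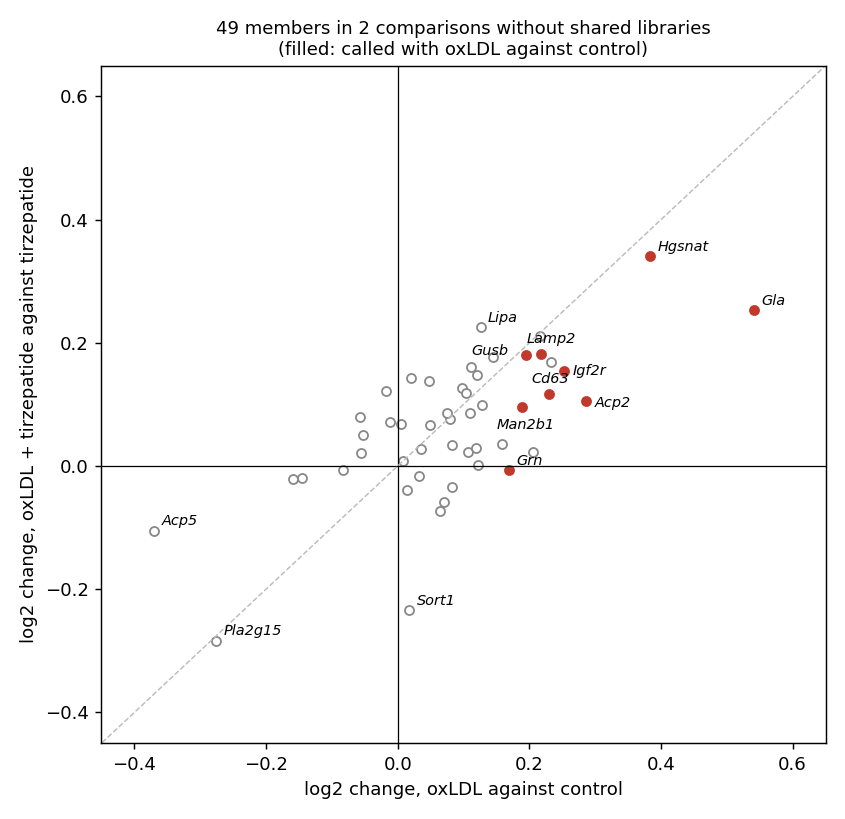
Log2 change of the 49 members with oxLDL against control (x axis) and in the combination against tirzepatide (y axis), comparisons without shared libraries. Filled points are the 9 members called in the first, the dashed line marks equal change, and 8 of the 9 lie above 0 on the y axis.

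By library, the members moved as small shifts. The median deviation of the 49 members from the control mean, in log2 CPM, was -0.06, 0.01, 0.06 and 0.02 in the controls and 0.08, 0.08, 0.09 and 0.09 with oxLDL. It was -0.02, -0.04, -0.05 and -0.01 with tirzepatide and 0.05, 0.01, 0.05 and 0.04 in the combination. All oxLDL libraries were above all controls, control 1 was the lowest library of all, and combination libraries fell within the control range.

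**Figure D5:**
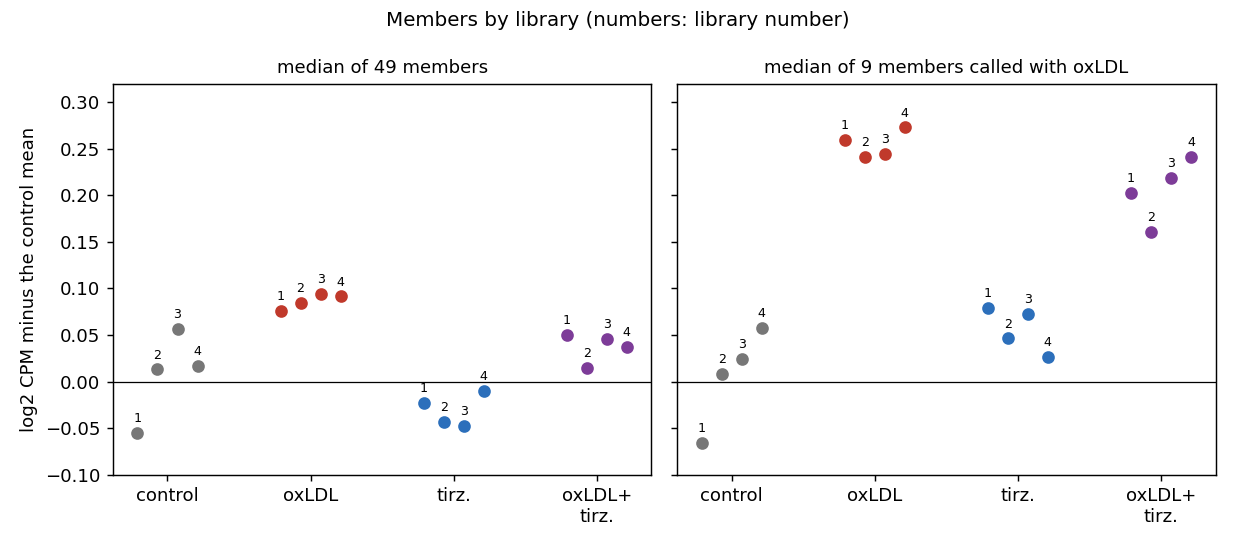
Median log2 CPM deviation from the control mean (y axis) in each library, by group on the x axis, for all 49 members on the left and for the 9 members called with oxLDL on the right, which were chosen on the oxLDL and control libraries. The numbers give the library. On the left the oxLDL libraries sit at 0.08 to 0.09, above the control range of -0.06 to 0.06.

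The 6 members with TCACGTGA had a median log2 change of 0.22 with oxLDL against control, and the 38 with an entry and without the motif had 0.09. Of the 6, only Gla and Igf2r were called there, and Cln3 and Sumf1 lay just below 0. In the combination against tirzepatide the medians were 0.14 and 0.06. They were 0.004 and -0.04 with tirzepatide alone, 0.12 and 0.02 in the combination against control, and -0.04 and -0.07 against oxLDL. For the interaction they were -0.08 and -0.01. A link between the motif and these changes was not tested. Of the 13 members with an entry that were called in any comparison, 2 held TCACGTGA and 3 held CACGTG, and of the 31 called in none, 4 and 10 did. Among tested genes called higher with oxLDL, 4.05% held TCACGTGA and 14.9% CACGTG.

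A further list of 92 lysosomal genes, not among the 49, gave 91 symbols in the table and 87 tested genes. With oxLDL 11 of the 87 (12.6%) rose and none fell, where 4.54% of tested genes were called, and the median log2 change was 0.07. For this list no count was made without controls 1 and 2, which carried the acinar transcripts. The largest were Slc48a1, a haem transporter (0.39), Scarb2, the receptor that carries glucocerebrosidase (0.31), Wdr81 (0.30) and Gpnmb, a membrane glycoprotein of lipid-laden macrophages (0.28). With tirzepatide alone 6 of the 87 (6.9%) were called, where 4.08% of tested genes were. Of these 2 rose, Ap3d1, a subunit of the AP-3 sorting adaptor (0.28), and the peptide transporter Slc15a3 (0.26). The other 4 fell, the hyaluronidase Hyal1 (-0.31), Mfsd12 (-0.28), Gpnmb (-0.25) and the adaptor Gga2 (-0.24). In the combination against control 9 (10.3%) rose and none fell, where 8.94% of tested genes were called, 4.69% of them higher. The largest were the channel Tpcn2 (0.56), Ap3d1 (0.32), Slc48a1 (0.28) and Scarb2 (0.28). Against oxLDL none was called, where 0.0353% of tested genes were. Against tirzepatide 5 (5.75%) were called, where 1.54% of tested genes were. Of these 4 rose, Slc48a1 (0.33), Mfsd12 (0.26), Scarb2 (0.24) and the sugar phosphate exchanger Slc37a2 (0.21), and Slc15a3 fell (-0.33).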

How the data were processed

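The deposited table gives, for 21965 genes in 16 libraries, an expected count that the authors estimated with RSEM, and TPM as deposited by the authors. Tools named in the submitters' processing notes are RSEM, StringTie 1.3.1, Bowtie2 2.2.8 and fastp 0.18.0, and the builds named there are GRCm39 and mm39. The strand setting and the annotation release are not given in the sources used here.

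The rounded counts went into edgeR 4.0.16 under R 4.3.3 (filterByExpr, TMM, glmQLFit and glmQLFTest), with the 4 group means fitted to all 16 libraries at once. Contrasts were taken for 6 comparisons, with Benjamini-Hochberg adjustment within each over the 11319 genes tested and calls at an adjusted p under 0.05. The common biological coefficient of variation was 0.0633. The standard error is the log2 change divided by the square root of F. On simulated data for oxLDL against control over 11319 genes, the fit recovered 34% of 1.2-fold, 80% of 1.5-fold and 96% of 2-fold changes. Of the genes it called, 3.77% had not been changed. Most 1.2-fold changes were thus missed in the simulation. Counts were simulated gene by gene, so patterns across genes, such as the acinar transcripts of controls 1 and 2, were not modelled. The rates in the real libraries may differ.

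Levels between genes are in TPM. Values of a gene by library are in TMM-normalised CPM from the counts, in place of the TPM first planned, because counts and TPM went apart for some members. The ratio of count to TPM differed over 1.2-fold between libraries in 6 members and in 21.4% of 9999 genes compared. Promoters are RefSeq's, on GRCm38.p6, and no coordinates of the files' build are printed.

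The members, lists, roles and tests were chosen with earlier results of these data known. Every called member is named, and in each role the 3 with the smallest adjusted p in any comparison are given by library with fixed genes (Gla, Lamp1, Lamp2, Lipa, Psap, Grn, Cd63 and the 3 factors). Of the further list, up to 4 called genes each way are named. Mcoln1 by library lies outside this rule and was chosen after its values were seen. Alternatives were a replicate block, only the groups compared, DESeq2 size factors, DESeq2 1.42.0, 2 other filters, mitochondrial or acinar share as covariates, libraries left out, and, added after seeing the data, limma 3.58.1 on log2(TPM + 1).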

Additional observations from a re-analysis of the deposited data

Results flagged for a closer look

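In 196 sets of 4 libraries (each member in each group, in CPM), 9 held 1 library far from the other 3, with a gap to the nearest, as a share of the set's range, over Dixon's critical value for 4. Chance flags about 5% of sets. Tirzepatide library 4 was high for Gaa, acid alpha-glucosidase, at 159 CPM (others 136 to 139), for Hexa at 237 CPM (others 224 to 226) and for Psap at 1031 CPM (others 971 to 976). Combination library 1 was high for Manba, beta-mannosidase, at 64.6 CPM (others 58.1 to 58.3), for Lipa at 424 CPM (others 376 to 381) and for the peptidase gene Tpp1 at 475 CPM (others 445 to 448). Combination library 2 was low for Hgsnat at 62.4 CPM (others 86.4 to 87.7). The oxLDL library 4 was low for Ctns, the cystine exporter, at 34.4 CPM (others 35.7 to 35.9), and control 2 was low for Tfe3 at 136 CPM (others 145 to 146).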

How the results depend on the processing

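The count of members called with oxLDL against control was 9 (4.54% of tested genes), and 5 with the acinar covariate (3.28%), 3 without controls 1 and 2 (2.67%), 5 with limma on log2 TPM (2.22%), 12 with the replicate block (6.48%), the mitochondrial covariate (7.18%) or DESeq2 (5.97%), and 6 to 10 with 1 library left out (2.7% to 5.21%). Percentages here are of tested genes called in the same setting. Of the 12 with the mitochondrial covariate, Pla2g15 was lower, as it was without control 4. Gla and Cd63 in that comparison, and Gusb, Lamp2 and Pla2g15 in the combination against control, kept their calls in all 26 settings run for them. For tirzepatide against control the count of 2 (4.08%) became 6 with the mitochondrial covariate (7.57%), 4 with the acinar covariate (2.89%), 5 without controls 1 and 2 (1.78%), 6 with DESeq2 (6.08%), 0 with limma (2.06%) and 0 to 6 with 1 library left out (1.04% to 4.75%). The median of its members was -0.064 with the acinar covariate, -0.0653 without controls 1 and 2 and -0.067 to -0.0162 with 1 library left out, and that of the combination against oxLDL was -0.0797 to -0.0592. For the combination against control the count of 9 (8.94%) became 5 with only the groups compared (3.69%), 18 with the mitochondrial covariate (14.1%) and 4 with limma (3.85%), and 6 to 13 with 1 library left out (4.17% to 12.7%). For the combination against tirzepatide the count of 3 (1.54%) became 1 with only the groups compared (0.968%), 6 with the mitochondrial covariate (1.9%), 5 with DESeq2 (3.19%), 0 with limma (0.442%, member median 0.0414), and 1 to 8 with 1 library left out (0.508% to 3.89%, member median 0.0456 to 0.0818). The cause of these shifts was not tested. The replicate block gave 5 for tirzepatide against control (6.63%), 14 for the combination against control (12%) and 7 for the combination against tirzepatide (3.34%). Same-numbered libraries deviated together little, with correlations of -0.127 to 0.189 in 24 pairs, 5 of them over 0.1, and 6 of 16 libraries correlated best with their own number, so the numbers are not taken as pairs. With oxLDL against control, the log2 change of Tfe3 turned to -0.0156 without controls 1 and 2 and ran from -0.0114 (without control 2) to 0.0214 with 1 library left out, and that of Mitf turned to 0.0285 with the acinar covariate and 0.00108 without controls 1 and 2.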
